A study of Mus musculus with 21 samples.

Results

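The type I interferon pathway was followed through 9 genes of its receptor and transcription factors in mouse embryonic fibroblasts (MEFs): Ifnar1, Ifnar2, Stat2, Irf1, Irf2, Irf3, Irf5, Irf7 and Irf9. They were chosen by gene symbol, as 9 of the 24454 genes quantified, and all 9 were among the 13719 genes with enough reads to be tested. RNA was taken 96 h after adenoviral infection from 7 groups of 3 libraries, 21 in all. Every group received a virus, so no uninfected cells were measured. In the Rtel1f/f line, whose Rtel1 alleles carry loxP sites, cells received a GFP virus (Rtel1f/f +GFP), a Cre virus that deletes Rtel1 (Rtel1f/f +Cre), or the GFP virus with 10 µM TMPyP4, a porphyrin that binds G-quadruplex (G4) DNA, over the last 48 h (Rtel1f/f +TMPyP4). Rtel1f/f cells transduced with RTEL1 C1252A/C1255A, here RTEL1 CA, received the GFP or the Cre virus, and so did the Trf1f/f line, in which Cre deletes Terf1, the gene of the telomere protein TRF1. RTEL1 is a helicase that unwinds G4 DNA and telomeric loops, and the mutant served to separate these roles. Each line is a single genetic background here, the labels do not say how many embryos it came from, and no library carried an empty vector as the control for the transduced cells.

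Type I interferons bind a receptor built from IFNAR1 and IFNAR2. The receptor's kinases phosphorylate STAT proteins, among them STAT2, which acts with IRF9 in the complex ISGF3, and ISGF3 switches on interferon-stimulated genes through a DNA element in their promoters. IRF3 and IRF7 act upstream of this loop: once phosphorylated after nucleic acid sensing they drive the interferon genes themselves, and IRF7 is itself a target of ISGF3, which makes it the feed-forward factor of the response. IRF1 is an activator that interferon induces through STAT dimers, IRF2 often opposes it at the same sites, and IRF5 is best known for inflammatory gene control in myeloid cells. Fibroblasts carry the receptor and keep low, tonic amounts of ISGF3 subunits and IRF7 that rise steeply once interferon is made.

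The promoters of Stat2, Irf2 and Irf7 are shown to place these elements. Each window runs from 250 bases before to 50 bases after a RefSeq start site (GRCm38.p6), is written 5′ to 3′ on the gene's strand, and was found for all 9 genes, with 11 windows in all. In Stat2 (chr10:128270248-128270547, plus strand) and Irf2 (chr8:46739495-46739794, plus strand) the capitals mark the core of the interferon-stimulated response element, searched on either strand as GAAA, any 2 bases and GAAA. In Irf7 (chr7:141266375-141266674, minus strand), the gene with the widest range of levels, they mark a G4 pattern, 4 runs of at least 3 G separated by 1 to 7 bases, where a G inside a longer run may count as a separating base, as it does in Irf7.
Stat2: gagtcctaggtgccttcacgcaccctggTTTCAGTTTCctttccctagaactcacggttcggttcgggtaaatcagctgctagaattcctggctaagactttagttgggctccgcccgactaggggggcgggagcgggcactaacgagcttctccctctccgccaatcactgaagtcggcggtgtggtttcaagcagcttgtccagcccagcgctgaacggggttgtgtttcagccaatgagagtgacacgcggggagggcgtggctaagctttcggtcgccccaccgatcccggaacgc
Irf2: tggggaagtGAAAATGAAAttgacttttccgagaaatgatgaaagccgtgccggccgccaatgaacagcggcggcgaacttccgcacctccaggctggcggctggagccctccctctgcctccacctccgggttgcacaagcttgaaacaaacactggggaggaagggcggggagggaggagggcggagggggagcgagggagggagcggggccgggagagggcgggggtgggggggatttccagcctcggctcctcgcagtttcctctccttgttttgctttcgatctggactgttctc
Irf7: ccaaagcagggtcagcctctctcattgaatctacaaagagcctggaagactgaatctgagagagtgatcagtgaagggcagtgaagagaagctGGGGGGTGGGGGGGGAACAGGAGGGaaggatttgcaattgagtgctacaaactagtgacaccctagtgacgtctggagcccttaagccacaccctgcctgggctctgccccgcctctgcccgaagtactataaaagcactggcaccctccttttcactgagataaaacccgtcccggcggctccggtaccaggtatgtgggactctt
The response element core was found in the windows of 2 of the 9 genes, Stat2 and Irf2, and in 3.44% of 32851 promoter windows genome-wide. It was present for 11 of the 20 interferon-stimulated target genes that had a window. The STAT dimer element TTCNNNGAA, which reads the same on both strands, was found for 4 genes, Irf1, Irf2, Ifnar1 and Ifnar2, against 8.3% of all windows, and in Irf2 it lies a few bases from the response element without overlapping it. The G4 pattern was found on either strand for 5 genes, Irf2, Irf3, Irf5, Irf7 and Ifnar1, against 18.6% of all windows. These are matches of letters and say nothing of what binds there.

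Depth ranged from 32069888 to 51938593 counts per library, with a median of 43013208. Rtel1 gave 26.8 to 31.9 normalised counts-per-million (CPM) in Rtel1f/f +Cre and 59.1 to 66.2 in Rtel1f/f +GFP. In the RTEL1 CA cells it gave 328 to 338 CPM with GFP and 253 to 283 with Cre. That last difference (-0.33, adjusted p = 0.0241) did not pass, so these counts do not show how complete deletion was in those cells. Terf1 gave 5, 2 and 1 counts in the Trf1f/f +Cre libraries and 27.9 to 30.3 CPM before Cre, as the labels have it. Collagen genes, Vim, Pdgfra and Pdgfrb were present in every library, but Thy1 stood at 0.02 to 0.49 CPM and Lum at 0 to 0.111 CPM in all 15 Rtel1f/f libraries, against 250 to 269 and 5.1 to 5.93 CPM in Trf1f/f +GFP, so the 2 lines differed in these fibroblast markers. The 10 immune markers summed to 1.58 to 6.81 CPM, with Adgre1, Cd3e, Tyrobp and Siglech at 0 in every library. These are bulk samples, in which fewer expressing cells and less RNA per cell cannot be told apart, and p-values measure the spread between libraries labelled as biological replicates.

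Corrected for transcript length as transcripts-per-million (TPM), the 9 genes ran from Irf7 through Irf1, Irf9, Stat2, Ifnar2, Ifnar1, Irf2 and Irf3 to Irf5 in their mean over 21 libraries. The means were 91.8 TPM for Irf7, 74.6 for Irf1, 50.8 for Irf9 and 49.6 for Stat2. Irf7 led only through the Trf1f/f libraries: its median was 1.36 TPM and it spanned 0.48 to 542 TPM. The receptor subunits averaged 48.5 TPM for Ifnar2 and 25 TPM for Ifnar1, with Ifnar2 above Ifnar1 in 21 of 21 libraries. Irf2 averaged 20.5 TPM and Irf3 20.3 TPM, and Irf5 was the lowest at 6.76 TPM. The ranges of all neighbours in this order overlapped over the libraries. Within the Rtel1f/f line the receptor subunits and Irf1 were the most abundant messages, whereas in Trf1f/f +Cre it was Irf7, Stat2 and Irf9, at means of 481 ± 83.9, 194 ± 13.8 and 159 ± 13.2 TPM (SD, n = 3).

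**Figure D1:**
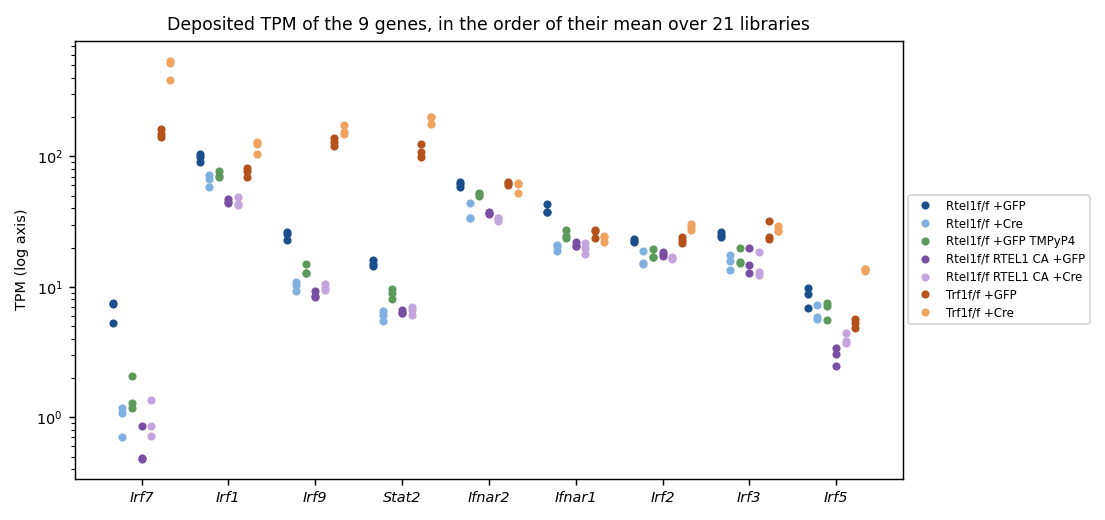
Deposited TPM (y axis, log scale) of the 9 genes (x axis) in 21 libraries. Points are single libraries coloured by group. Irf7, Irf9 and Stat2 stand far higher in the Trf1f/f line, where Irf7 reaches 542 TPM, than in the Rtel1f/f line, while Irf2, Irf3 and the receptor genes stay within a narrow range.

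The first comparison asked what deleting Rtel1 does to these genes. Of the 9, 6 fell and none rose in Rtel1f/f +Cre against Rtel1f/f +GFP (edgeR quasi-likelihood test, adjusted p at most 0.01 over all genes), where 43% of all genes tested passed in either direction. The median log2 fold change of the 9 was -0.44, beside -0.03 over all genes. Of the genes that passed, 51.1% were higher, but 23.6% on deposited TPM, on which the median of all genes was -0.26 and that of the 9 was -0.72. Irf7 fell furthest, followed by the ISGF3 subunits Stat2 and Irf9 and then the receptor subunits. Irf2, Irf3 and Irf5 did not pass the test. Against RTEL1 CA +GFP as the control instead, 2 of the 9 genes passed, both higher after deletion.

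Ifnar1, which encodes the signalling chain of the receptor, gave 129, 142 and 132 CPM in Rtel1f/f +GFP and 85.2, 79.5 and 80.6 in Rtel1f/f +Cre. Every deleted library lay below every control, where the groups lay apart in either direction for 61.4% of all genes tested. The log2 fold change was -0.72 (SE 0.0639, adjusted p = 5.03e-08). Ifnar2, the chain that binds interferon most tightly, went from 41.3, 43.3 and 42.8 CPM to 28.7, 34.7 and 30.3. The groups did not overlap, and the change was -0.44 (SE 0.0698, adjusted p = 3.45e-05).

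Stat2, the DNA-complex subunit that carries the activation domain of ISGF3, gave 31.1, 33.1 and 32.5 CPM before and 15.4, 15.4 and 14.3 after Cre. It fell by 1.10 on the log2 scale (SE 0.0903, adjusted p = 1.94e-08), with tight replicates on both sides. Irf9, the subunit that recognises the response element, gave 26.2, 29.1 and 29.1 CPM before and 12.9, 13.6 and 14.3 after. The log2 fold change was -1.05 (SE 0.0905, adjusted p = 3.49e-08), so both subunits lost about the same share of their message. Irf7 gave 4.34, 5.88 and 6.29 CPM in Rtel1f/f +GFP and 1.17, 0.993 and 0.71 in Rtel1f/f +Cre, that is 195, 286 and 314 counts against 50, 40 and 26. All 3 deleted libraries were low, and the fall was 2.51 on the log2 scale (SE 0.251, adjusted p = 2.88e-07), a 5.7-fold reduction.

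Irf1 gave 90.4, 99.8 and 101 CPM in the control and 68.6, 80.4 and 81.7 after Cre. The groups lay apart, the log2 fold change was -0.33 (SE 0.0938), and the adjusted p of 0.00569 passed narrowly. Without Rtel1f/f +Cre replicate 1 the adjusted p was 0.0374, without replicate 3 it was 0.0143, and without Rtel1f/f +GFP replicate 2 or 3 it was 0.047 or 0.0462. Irf2 gave 26.5, 26.1 and 26.3 CPM against 21.1, 24.7 and 21.4, a log2 difference of -0.23 with adjusted p = 0.0183. It passed without Rtel1f/f +Cre replicate 2, at adjusted p = 0.00533. Irf3 gave 22.7, 23.8 and 24 CPM against 19.5, 14.2 and 18.3 (-0.44, SE 0.169, adjusted p = 0.0345). Irf5 gave 7.03, 9.64 and 9.09 CPM against 7.11, 6.43 and 9.14, with overlapping groups (-0.19, 95% interval -0.51 to 0.14). The summed fibroblast markers, 8 genes, moved alongside, from 12800 to 13700 CPM in Rtel1f/f +GFP to 4120 to 6470 CPM in Rtel1f/f +Cre. Of the 8, 5 fell (the 3 collagens, Pdgfra and Pdgfrb) and 1 rose (Thy1, which stayed under 0.5 CPM), while Vim (0.22) and Lum (-0.56) did not pass. Of the 7 endothelial and epithelial markers 5 were tested: Cdh5 (3.75), Kdr (2.35) and Krt18 (1.17) rose and Cdh1 fell (-3.50), and the list summed to 2.45 to 3.02 CPM before and 3.18 to 3.38 CPM after Cre. Of the 10 immune markers 2 were tested, and Csf1r rose (1.60, adjusted p = 5.62e-05) to 1.36 to 1.51 CPM. The part of these markers in the changes of the 9 genes was not tested.

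**Figure D2:**
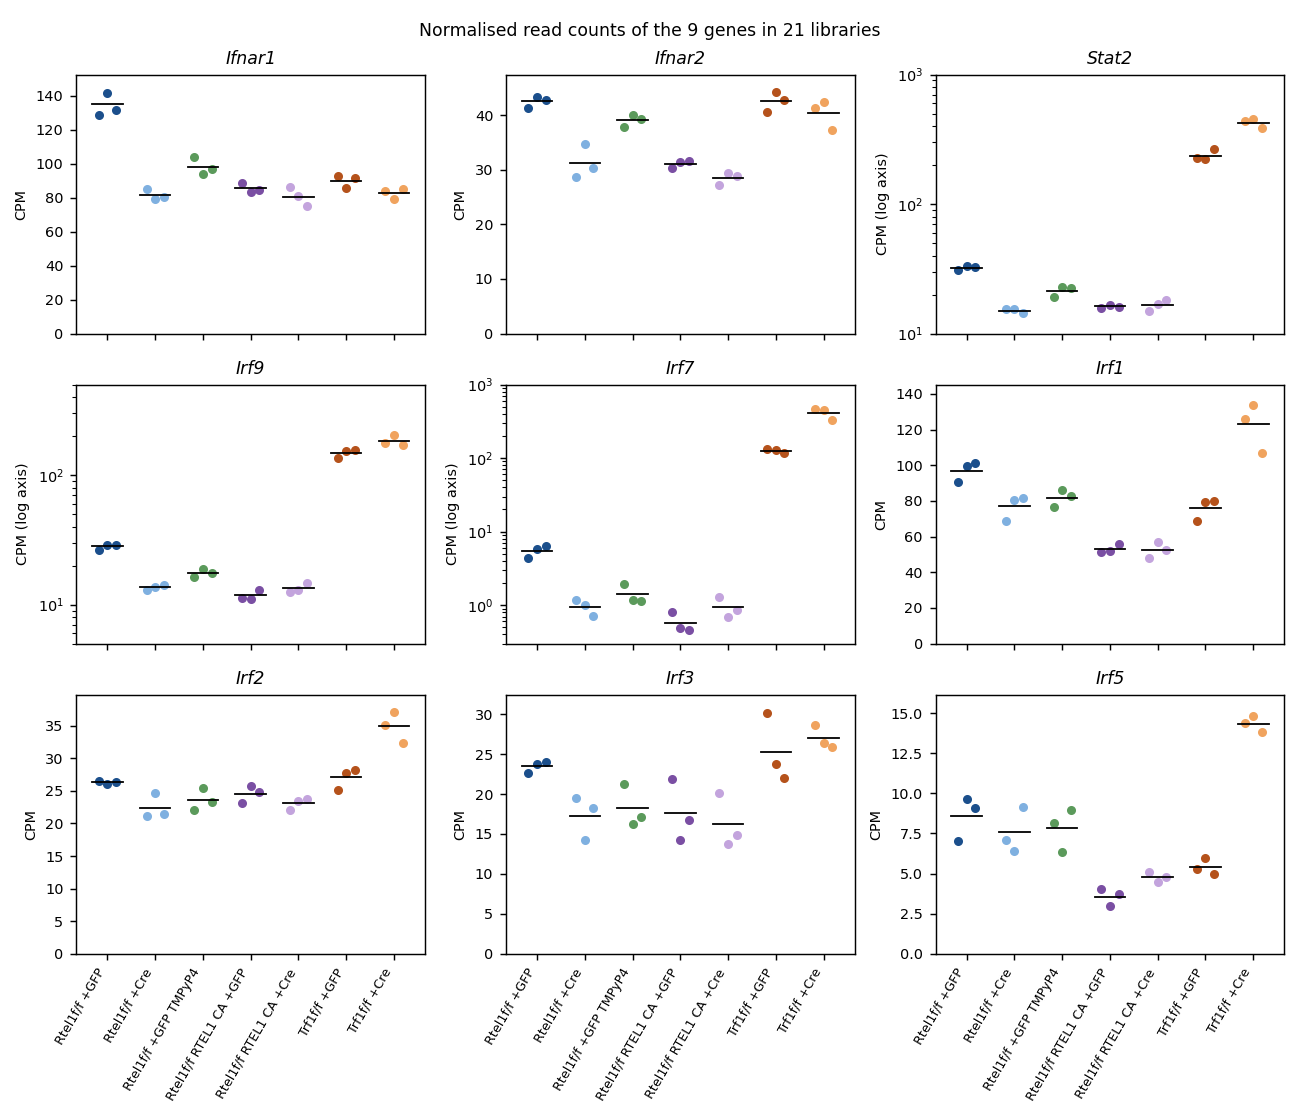
Normalised read counts (y axes, CPM; log scale for Stat2, Irf9 and Irf7) of the 9 genes in the 7 groups (x axes). Points are single libraries and bars the means of 3. For every gene except Irf5 the 3 Rtel1f/f +GFP libraries stand above every library of the other 4 groups of that line. Of all genes tested, 61.4% had groups apart from Rtel1f/f +GFP, in either direction, in Rtel1f/f +Cre, 57.8% under TMPyP4 and 63.6% in RTEL1 CA +GFP.

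TMPyP4 treatment asked whether a G4 ligand moves the same genes in cells that keep Rtel1. It was compared with the same 3 Rtel1f/f +GFP libraries as the deletion, so a high or low control enters both comparisons. Of the 9 genes, 4 fell and none rose, Irf7, Irf9, Stat2 and Ifnar1, where 30% of all genes tested passed. The median of the 9 was -0.37, beside -0.01 over all genes. Of the genes that passed, 55.4% were higher, and 22.9% on TPM, where the medians were -0.57 and -0.19.

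Irf7 was 1.93, 1.16 and 1.15 CPM under TMPyP4, well below every control library (-1.99, SE 0.24, adjusted p = 6.77e-06). Irf9 was 16.3, 18.9 and 17.5 CPM (-0.68, SE 0.0896, adjusted p = 1.18e-05). Stat2 was 19.1, 22.8 and 22.5 CPM (-0.59, SE 0.0891, adjusted p = 4.87e-05). All treated values of Irf9 and Stat2 lay between those of Rtel1f/f +GFP and Rtel1f/f +Cre, whereas those of Irf7 overlapped Rtel1f/f +Cre. Ifnar1 was 104, 93.8 and 96.9 CPM, also below every control (-0.45, SE 0.0637, adjusted p = 2.34e-05). Treated and control groups lay apart, in either direction, for 57.8% of all genes tested. Ifnar2 was 37.8, 40 and 39.2 CPM and did not pass (-0.12, 95% interval -0.27 to 0.03). The differences of Irf1, Irf2, Irf3 and Irf5 were -0.25, -0.15, -0.37 and -0.14, and none of these passed. With RTEL1 CA +GFP as the control the direction turned, and 6 of the 9 genes passed, all higher under TMPyP4, among them Irf7 (1.23), Irf9 (0.58) and Stat2 (0.41). The fibroblast markers summed to 6220 to 9280 CPM in the treated libraries, and their part in these values was not tested.

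Set against each other directly, deletion and ligand differed in 4 of the 9 genes, where 15.2% of all genes tested passed, of which 40.3% were higher, and 30% on TPM. All 4 were lower after deletion. Stat2 differed by -0.51 (SE 0.0903, adjusted p = 0.000381), Irf9 by -0.37 (SE 0.091, adjusted p = 0.00587), Ifnar2 by -0.32 (SE 0.0699, adjusted p = 0.00243) and Ifnar1 by -0.27 (SE 0.0637, adjusted p = 0.00469). Among the untransduced Rtel1f/f groups the means of the ISGF3 subunits and the receptor genes were lowest after deletion, with the ligand in between. Irf7, the gene that moved most in both arms, differed by -0.52 with a 95% interval from -1.14 to 0.10 and did not pass. Irf1, Irf2, Irf3 and Irf5 differed by -0.09 to -0.05, each with an interval that included 0. Only the call of Stat2 held when each library was left out in turn, at adjusted p up to 0.00951. Irf9 lost its call without any of the 3 Rtel1f/f +Cre libraries or without TMPyP4 replicate 2 or 3 (0.0185 to 0.0346). Ifnar1 lost it without Rtel1f/f +Cre replicate 2 or 3 or TMPyP4 replicate 1 or 3 (0.0125 to 0.0469), and Ifnar2 without Rtel1f/f +Cre replicate 1 or 3 or TMPyP4 replicate 2 or 3 (0.0102 to 0.0626). In a fit of these 6 libraries alone none of the 4 passed, with Stat2 at adjusted p = 0.0144.

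The RTEL1 CA cells asked 2 things: whether the mutant changes the genes before Cre, and whether Cre then still does. Before Cre, RTEL1 CA cells were compared with the same Rtel1f/f +GFP libraries, and 7 of the 9 genes were lower and none higher, where 44.7% of all genes tested passed, of which 50.6% were higher, and 22.9% on TPM. Irf7 was 0.797, 0.488 and 0.457 CPM, the lowest level of any group, on 37, 18 and 20 counts (-3.22, SE 0.268, adjusted p = 3.73e-08). Irf9 was 11.3, 11.1 and 12.9 CPM (-1.26, SE 0.091, adjusted p = 4.49e-09). Irf5 was 4.01, 2.98 and 3.7 CPM (-1.27, SE 0.158, adjusted p = 2.49e-06). All 3 lay below every untransduced control library, where the groups lay apart in either direction for 63.6% of all genes tested. Stat2 was 15.7, 16.7 and 16.1 CPM (2-fold lower, SE of the log2 value 0.0899, adjusted p = 5.96e-08), and Irf1 51.1, 52 and 56 CPM (-0.87, SE 0.0945, adjusted p = 5.22e-07). Ifnar1 and Ifnar2 differed by -0.65 and -0.45, close to their values after Rtel1 deletion. Irf2 (-0.10) and Irf3 (-0.41) did not pass, though Irf3 did without RTEL1 CA +GFP replicate 1, at adjusted p = 0.00634. The mutant and the transduction cannot be told apart here, and the fibroblast markers summed to 4820 to 7850 CPM in these libraries.

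With RTEL1 CA present, none of the 9 genes passed the test after Cre, where 1.09% of all genes tested passed, 150 genes, or 289 with the replicate block. By the unadjusted test 2 of the 9 were under 0.05, beside 1950 of all 13719 genes tested, and DESeq2 also called none of the 9. Irf7 was 1.29, 0.687 and 0.868 CPM after Cre, overlapping its level before (0.71, 95% interval 0.03 to 1.40, adjusted p = 0.312). Irf5 was 5.1, 4.47 and 4.79 CPM, above all 3 libraries before Cre, but did not pass (0.42, adjusted p = 0.193). Irf9 gave 12.6, 12.9 and 14.8 CPM and Stat2 14.9, 16.8 and 18.2, with log2 differences of 0.19 and 0.04. The receptor genes differed by -0.09 and -0.13, and Irf1, Irf2 and Irf3 by -0.01, -0.09 and -0.12. For Stat2 the 95% interval was -0.15 to 0.24 and for Ifnar1 -0.22 to 0.05, both short of the falls of 1.10 and 0.72 without the mutant. The starting levels were unlike: Stat2 stood at 15.7 to 16.7 CPM in RTEL1 CA +GFP, against 14.3 to 15.4 in Rtel1f/f +Cre. Ifnar1 stood at 83.5 to 88.6 CPM, against 79.5 to 85.2. The part of the starting levels in this contrast was not tested.

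**Figure D3:**
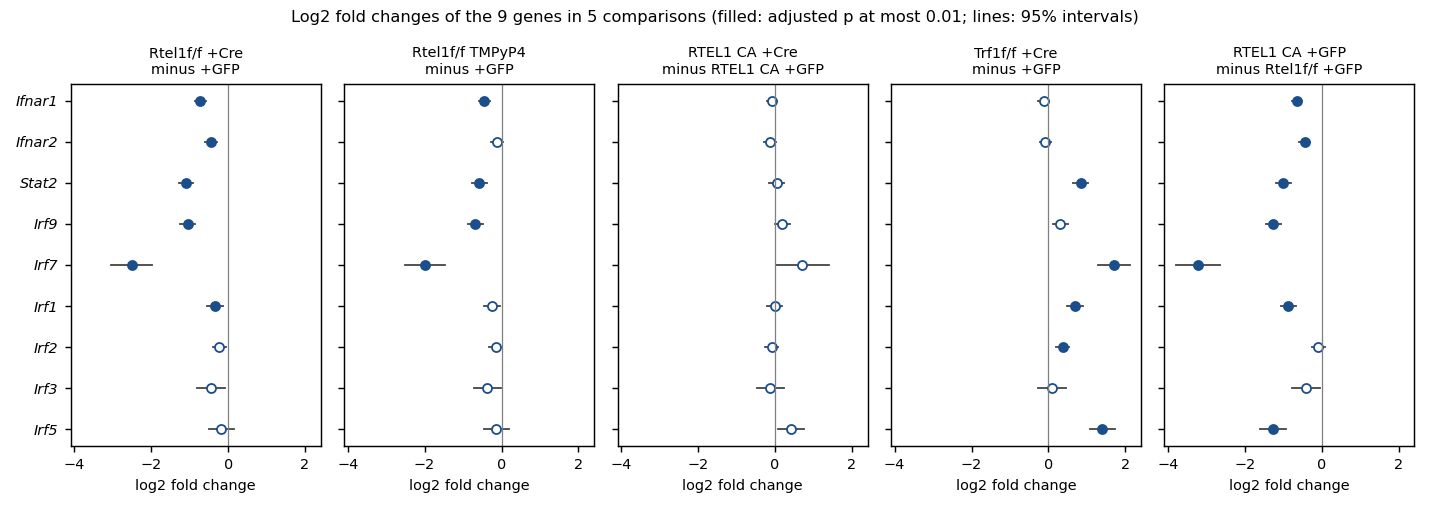
Log2 fold changes (x axes) of the 9 genes (y axis) in 5 comparisons. Points are estimates, filled where the adjusted p was at most 0.01, and lines are 95% intervals. All 9 estimates are below 0 in the 3 comparisons that share the Rtel1f/f +GFP libraries, where Irf7, Irf9, Stat2 and Ifnar1 pass each time. After Cre in Trf1f/f cells 5 genes pass as higher.

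Deleting Terf1, which makes telomeres fragile, was compared for the same genes in another line. Of the 9, 5 rose and none fell, Irf7, Irf5, Stat2, Irf1 and Irf2, where only 3.42% of all genes tested passed. The median of the 9 was 0.37, beside 0.00 over all genes. The receptor genes did not pass.

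Irf7 gave 133, 128 and 118 CPM in Trf1f/f +GFP and 460, 447 and 327 in Trf1f/f +Cre. All 3 deleted libraries lay far above the controls, and Irf7 rose 3.25-fold (1.70, SE 0.189, adjusted p = 1.22e-05). Irf5 went from 5.29, 5.98 and 4.96 CPM to 14.4, 14.8 and 13.8, a 2.65-fold rise to its highest level of any group (1.40, SE 0.155, adjusted p = 8.39e-06). Stat2 went from 226, 221 and 265 CPM to 439, 450 and 385 (0.84, SE 0.0872, adjusted p = 4.55e-06). Irf1 went from 68.6, 79.5 and 80.1 CPM to 126, 134 and 107 (0.69, SE 0.0941, adjusted p = 9.35e-05). Neither gene's groups overlapped, where the groups lay apart in either direction for 26.9% of all genes tested.

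Irf9, in contrast to its partner Stat2, started at 135, 153 and 155 CPM and ended at 178, 203 and 170. The groups did not overlap, but the change of 0.31 (SE 0.0864) did not pass, at adjusted p = 0.0376. Irf2 went from 25.1, 27.8 and 28.2 CPM to 35.1, 37.1 and 32.4 (0.37, SE 0.078, adjusted p = 0.00634). Its call rested on all 6 libraries: without Trf1f/f +GFP replicate 1, 2 or 3 the adjusted p was 0.0424, 0.0503 or 0.0154, and without Trf1f/f +Cre replicate 1, 2 or 3 it was 0.0693, 0.0914 or 0.0158. Irf3, the factor that starts interferon production and is regulated mostly at the protein level, gave 30.1, 23.8 and 22 CPM against 28.7, 26.4 and 25.9 (0.09, 95% interval -0.27 to 0.45). Ifnar1 gave 93, 85.5 and 91.6 CPM against 84, 79.1 and 85.3 (-0.12, 95% interval -0.26 to 0.02). Ifnar2 gave 40.6, 44.3 and 42.7 CPM against 41.2, 42.4 and 37.2 (-0.08, 95% interval -0.23 to 0.07). The summed fibroblast markers were 14100 to 20400 CPM before and 14900 to 18000 CPM after Cre. Of the 8, Pdgfra fell (-0.43, adjusted p = 0.00602) and none rose. Immune markers summed to 4.82 to 5.93 CPM before and 5.94 to 6.81 after. Cd68 made up most of this, at 4.38 to 5.66 and 5.49 to 6.38 CPM, and neither of the 2 tested passed. Ptprc, the pan-leukocyte marker, was at or near 0 in both groups. Of 5 endothelial and epithelial markers tested, Kdr rose (0.90, adjusted p = 0.00481). The part of these markers was not tested.

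Whether Cre acted differently by genotype was tested as a difference of log2 fold changes. Between Rtel1f/f cells and RTEL1 CA cells, 4 of the 9 genes differed, all lower without the mutant, where 25.1% of all genes tested passed, of which 51.1% were higher, and 19% on TPM. They were Irf7 by -3.22 (SE 0.407, adjusted p = 1.49e-05), Irf9 by -1.24, Stat2 by -1.14 and Ifnar1 by -0.63. The starting levels differed too: Irf7 stood at 0.457 to 0.797 CPM in RTEL1 CA +GFP and at 4.34 to 6.29 in Rtel1f/f +GFP, while both Cre groups lay between 0.687 and 1.29 CPM. Stat2 stood at 14.3 to 15.4 CPM in Rtel1f/f +Cre and 14.9 to 18.2 in RTEL1 CA +Cre. With RTEL1 CA +GFP as the control in place of Rtel1f/f +GFP, the log2 difference of Rtel1f/f +Cre was 0.71 for Irf7 and 0.21 for Irf9, in the opposite direction but short of the threshold (adjusted p = 0.186 and 0.164), and 2 of the 9 genes passed, Irf1 (0.54) and Irf5 (1.08), both higher. Ifnar2 and Irf5 did not pass (-0.31 and -0.61), but did without Rtel1f/f +Cre replicate 2 (adjusted p = 0.00382) and replicate 3 (0.00913), respectively.

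Between Rtel1 and Terf1 deletion, 8 of the 9 genes differed, all except Irf3, where 30.2% of all genes tested passed, of which 52.1% were higher, and 25.3% on TPM. The effect of Cre was lower in the Rtel1f/f line for every one of them. The differences were -4.21 for Irf7 (SE 0.313, adjusted p = 3.13e-08), -1.94 for Stat2, -1.59 for Irf5, -1.36 for Irf9 and -1.02 for Irf1. Irf2, Ifnar1 and Ifnar2 differed by -0.60, -0.60 and -0.36. Ifnar2 passed narrowly (adjusted p = 0.00626) and lost its call without any 1 of 10 of the 12 libraries (0.0113 to 0.0481), that is, all except Rtel1f/f +Cre replicate 2 and Rtel1f/f +GFP replicate 1. Irf3 differed by -0.53 (adjusted p = 0.0801).

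Between Terf1 deletion and Cre in RTEL1 CA cells, 2 genes differed, where 0.62% of all genes tested passed. Stat2 differed by 0.80 (SE 0.125, adjusted p = 0.00204) and Irf1 by 0.70 (SE 0.133, adjusted p = 0.00911). Irf5 (0.98, adjusted p = 0.0292) and Irf2 (0.46, adjusted p = 0.0468) did not pass. Irf7 differed by 0.99 with an interval from 0.18 to 1.80 and did not pass (adjusted p = 0.296), its counts in RTEL1 CA cells being 18 to 66 per library. Stat2 lost its call without RTEL1 CA +GFP replicate 3, Trf1f/f +Cre replicate 1 or 2 or Trf1f/f +GFP replicate 2 (adjusted p 0.0108 to 0.0196). Irf1 kept its call only without Trf1f/f +Cre replicate 3, and without any of the other 11 libraries its adjusted p was 0.0123 to 0.0555.

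**Figure D4:**
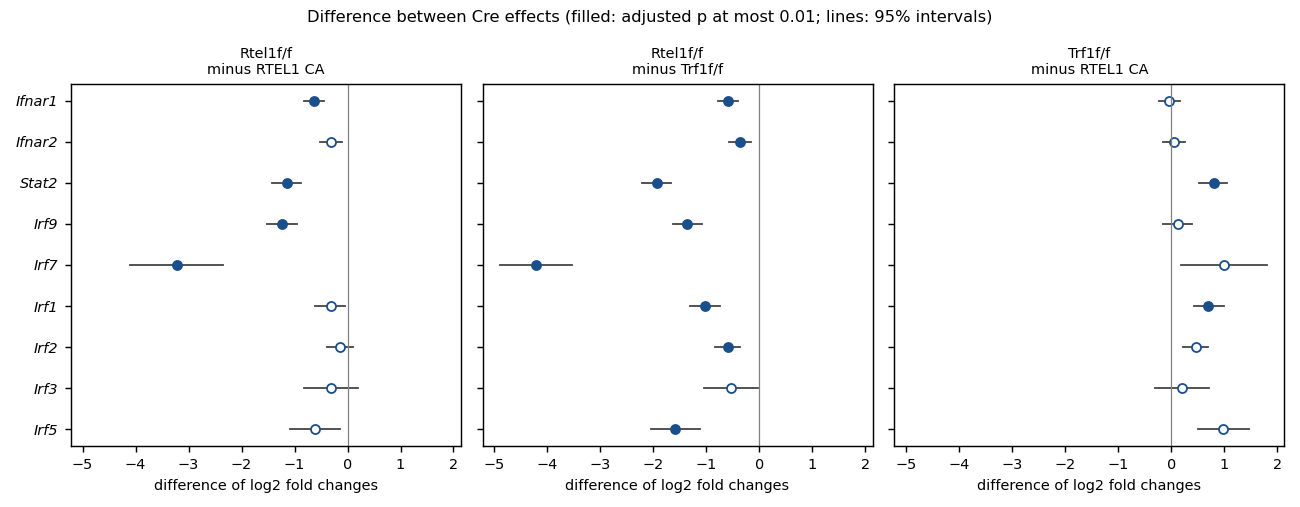
Difference between the log2 effects of Cre (x axes) in 2 backgrounds for the 9 genes (y axis). Points are estimates, filled where the adjusted p was at most 0.01, and lines are 95% intervals; Irf7 differs by -4.21 between Rtel1f/f and Trf1f/f cells, and Irf3 passes in none of the panels.

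The lines also differed before Cre, a comparison added after the data had been seen, in which genetic background, line and gene cannot be told apart. Of the 9 genes, 3 were higher and 3 lower in Trf1f/f +GFP than in Rtel1f/f +GFP, where 54.9% of all genes tested passed. Irf7 was 22.9-fold higher (4.52, SE 0.218, adjusted p = 7.61e-12), Stat2 7.37-fold (2.88, SE 0.0935, adjusted p = 1.45e-14) and Irf9 5.25-fold (2.39, SE 0.0915, adjusted p = 1.17e-13). The subunits of ISGF3 and its target Irf7 were thus high in this line already without deletion. Irf5, Ifnar1 and Irf1 were lower, by -0.67, -0.58 and -0.35. Irf1 lost its call without Rtel1f/f +GFP replicate 2 or 3 (adjusted p = 0.0175 or 0.0176) or Trf1f/f +GFP replicate 1 (0.0233). Ifnar2 did not differ measurably (0.00, 95% interval -0.15 to 0.15).

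The remaining genes of the pathway were followed in lists. Among 10 interferon genes, 2 had enough reads to be tested. Ifnb1, the interferon that fibroblasts make first, gave 8, 13 and 8 counts in Trf1f/f +GFP and 56, 89 and 35 in Trf1f/f +Cre, and rose (2.61, SE 0.44, adjusted p = 0.00117). Ifna4 gave 5, 5 and 7 counts and then 12, 24 and 17 (adjusted p = 0.0728). In the other 5 groups Ifnb1 had at most 3 counts per library and Ifna4 none, so a change there was not detectable at this depth.

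Of 11 other IRF, STAT and receptor genes tested, 7 fell and none rose after Rtel1 deletion, and likewise 7 fell and none rose under TMPyP4, beside 43% and 30% of all genes in either direction. Ifnlr1, a chain of the type III interferon receptor, gave 2.11, 3.08 and 3.37 CPM in Rtel1f/f +GFP, 0.326, 0.199 and 0.3 after deletion and 0.285, 0.506 and 0.501 under TMPyP4. It fell by 3.36 (adjusted p = 1.28e-08) and by 2.69 (adjusted p = 3.3e-07), on 8 to 21 counts per library in the lower groups. Irf8, a factor of myeloid cells, had 16, 47 and 50 counts in Rtel1f/f +GFP, 2, 1 and 4 after deletion and 1, 1 and 0 under TMPyP4, and fell in both. Stat5a, which serves cytokine and growth hormone receptors, fell by 1.77 and by 1.34. Stat3, which serves the IL-6 family more than interferon, fell by 1.09 after deletion and by 0.86 under TMPyP4, and Ifngr2, a chain of the interferon gamma receptor, by 0.61 and 0.65.

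Of 15 receptor kinases and brakes, 1 rose after Terf1 deletion, beside 3.42% of all genes in either direction. This was Usp18, which displaces a kinase from IFNAR2 and damps the receptor. It gave 222, 241 and 254 CPM before and 515, 530 and 417 after Cre (1.03, adjusted p = 8.02e-06). In the Rtel1f/f line Usp18 went from 3.16, 3.56 and 3.69 CPM to 0.583, 0.347 and 0.464 on deletion (-2.89, adjusted p = 4.09e-10) and to 0.793, 0.53 and 0.86 under TMPyP4 (-2.26, adjusted p = 1.71e-08). After Rtel1 deletion 3 of the list rose and 4 fell, and after TMPyP4 1 rose and 3 fell, which is near the 43% and 30% of all genes that passed. Of 15 kinases and adaptors that activate IRFs, only Myd88 passed after Terf1 deletion (0.44, adjusted p = 0.000554), again beside 3.42% of all genes. In the Rtel1f/f line 4 rose and 1 fell after deletion and 5 rose and 2 fell under TMPyP4, beside 43% and 30% of all genes, so the numbers that passed do not set this list apart. Those that rose in both were Irak1 (0.62 and 0.52), Chuk (0.74 and 0.69) and Tank (0.67 and 0.64), with Mavs also passing in both.

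The 25 interferon-stimulated target genes, which read out ISGF3 activity, summed to 373 to 396 CPM in Rtel1f/f +GFP, 202 to 222 after Cre and 208 to 227 under TMPyP4. In RTEL1 CA cells they summed to 146 to 161 CPM before and 181 to 198 after Cre. In Trf1f/f cells the sums were 4010 to 4590 CPM before and 7840 to 11100 after Cre. By gene, 24 of 25 rose after Terf1 deletion, beside 3.42% of all genes in either direction. Oasl1 (2.28), Rsad2 (2.20), Psmb9 (1.96) and Tap1 (1.51) led by adjusted p. After Rtel1 deletion 17 fell, beside 43% of all genes in either direction, with Tap1 (-2.14), Psmb8 (-3.42) and Parp14 (-1.84) foremost by adjusted p. Under TMPyP4 18 fell, beside 30% of all genes, and none rose in either comparison. None passed after Cre in RTEL1 CA cells, where 1.09% of all genes tested passed. Of the 25 estimates 20 were above 0, and 12 had an unadjusted p under 0.05, beside 1950 of all 13719 genes tested. That fit held no replicate block, and the list was not counted in the fit with a block.

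**Figure D5:**
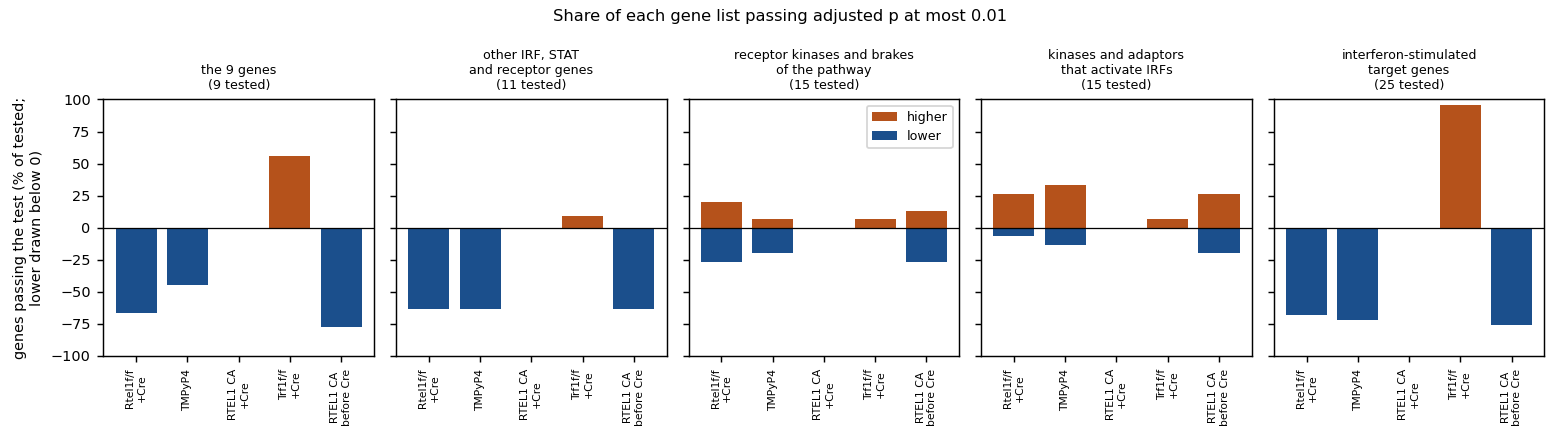
Share of genes tested (y axis, %) that passed an adjusted p of at most 0.01 in 5 comparisons (x axes), higher drawn upwards and lower downwards, for the 9 genes and 4 lists of the pathway. In the interferon-stimulated list 24 of 25 genes are higher after Cre in Trf1f/f cells, where 3.42% of all genes tested passed. No gene of any list passes after Cre in RTEL1 CA cells, where 1.09% of all genes did.

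Over the 21 libraries the 9 genes fell into sets with unlike patterns, described here by Pearson's r of log2 CPM, which the groups and the lines largely set. Stat2, Irf9 and Irf7 ran together, at r = 0.994 for Irf9 with Stat2, 0.990 for Irf7 with Irf9 and 0.989 for Irf7 with Stat2. Within groups, after the group means were taken out, these fell to 0.580, -0.237 and -0.249. The receptor genes were less alike, at r = 0.535 over all libraries and -0.558 within groups. Ifnar1 with Irf7 gave 0.00206 over all libraries and 0.528 within groups. Irf5 with Irf1 gave 0.897 over all libraries and 0.119 within groups.

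Of 11840 genes that averaged 1 CPM or more, Stat2 was closely matched by Ifit3 (0.996) and Trim25 (0.996). Irf7 was most like Parp14, Gbp7 and Igtp (0.996 each), and Irf9 most like Irgm2, Ifitm3 and Mx2 (0.995 each). Irf5 was most like Ccl5 (0.903), Irf1 (0.897) and H2-K2 (0.890), and Irf1 most like Plekha2 (0.922), Rnaset2a (0.908) and Erap1 (0.901). Irf2 was most like Figf (0.944), Sppl2a (0.931) and Aida (0.925). Irf3 stood with Grcc10 (0.983), Cic (0.980) and Col5a1 (0.980), and replicate 1 held the highest Irf3 level in 6 of the 7 groups. Ifnar1 was most like Rab11fip4 (0.963), Fmod (0.959) and Tgm2 (0.954), and Ifnar2 most like Lpar4 (0.962), Sgce (0.962) and Kansl1l (0.955).

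In the annotation all 9 genes lie apart from one another, although Ifnar2 (chr16:91372783-91405589) and Ifnar1 (chr16:91485032-91510523) are neighbours on the plus strand. Irf7 spans chr7:141263183-141266499, Irf9 chr14:55603985-55610030, Stat2 chr10:128270498-128292853, Irf1 chr11:53770014-53778374 and Irf5 chr6:29526130-29541869. Irf2 lies at chr8:46739745-46847458 and Irf3 at chr7:44997648-45002848. RefSeq genes overlap 4 of them. For Irf5 (Tnpo3), Irf2 and Ifnar2 they lie on the opposite strand, which the authors' counting was set to separate. Stat2 shares a stretch with Apof, whose strand was not found here, so the Stat2 reads there are uncertain.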

How the data were processed

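Polyadenylated RNA of MEFs was sequenced in 21 libraries, 3 per group. The authors trimmed adaptors with cutadapt 1.9.1, mapped reads with STAR 2.5.2a and deposited RSEM 1.3.0 estimated counts per RefSeq gene, set to the reverse strand and whole numbers as deposited, and TPM, which RSEM scales for transcript length. The submitters' processing notes also name DESeq2 1.28.0 and mm10. From the deposited estimated counts, genes with enough reads (edgeR's filterByExpr over the groups) were fitted in one model of all 21 libraries, with 14 residual degrees of freedom, using TMM scaling and edgeR 4.0.16 quasi-likelihood tests in R 4.3.3. Every p in the text is from this fit unless another is named, adjusted by Benjamini-Hochberg over all 13719 genes tested, with a threshold of 0.01. Differences between Cre effects were contrasts of the same fit.

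Alternatives were DESeq2 1.42.0, size factors in edgeR, no or another low-count filter, a fit limited to the compared groups, a block for replicate number, a threshold of 0.05, limma 3.58.1 on log2(TPM + 0.1), each library left out in turn, and RTEL1 CA +GFP as the control. Leaving out all libraries numbered 1, and the comparison of the lines before Cre, were added after the data had been seen. The fits were tested on simulated data. Same-numbered libraries deviated together from their group means (Pearson r over 11840 genes) in Rtel1f/f +Cre and TMPyP4 (0.724, 0.758 and 0.409) and in RTEL1 CA with and without Cre (0.864, 0.839 and 0.424), so these were taken as pairs. The main fit held no block, so the p-values given for these comparisons are unpaired unless the block is named. The labels do not say what a number marks.

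The 9 genes, the pathway lists and the markers of fibroblasts, immune cells and endothelial or epithelial cells were chosen with earlier results of these data known. Text names all 9 genes, Rtel1 and Terf1, up to 4 genes per list by adjusted p after Cre in Trf1f/f or RTEL1 CA cells and up to 3 per list elsewhere, and of the 3 genes most like each of the 9 those given. One gene is not reported here. Mavs, Irf8, Stat5a, the values of Usp18, Stat3 and Ifngr2 in comparisons where they ranked lower, the single markers and Ifna4 were added after their values were seen. The endothelial and epithelial markers summed to 1.4 to 5.07 CPM. Intervals cover the spread between libraries.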

Additional observations from a re-analysis of the deposited data

Results flagged for a closer look

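Tests of the difference between Cre effects singled out 14 results, each given as a difference of log2 fold changes (edgeR, adjusted p at most 0.01). Between Rtel1f/f cells and RTEL1 CA cells the effect of Cre differed by -3.22 for Irf7, -1.24 for Irf9, -1.14 for Stat2 and -0.63 for Ifnar1. For each, all 3 Rtel1f/f +Cre libraries lay below all 3 Rtel1f/f +GFP libraries. These 2 groups lay apart, in either direction, for 61.4% of all genes tested. Between Rtel1f/f and Trf1f/f cells the effect of Cre differed by -4.21 for Irf7, -1.94 for Stat2, -1.59 for Irf5, -1.36 for Irf9, -1.02 for Irf1, -0.60 for Irf2, -0.60 for Ifnar1 and -0.36 for Ifnar2. Between Trf1f/f and RTEL1 CA cells it differed by 0.80 for Stat2 and 0.70 for Irf1. Groups of 3 libraries were too small to test for a sample standing apart.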

How the results depend on the processing

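Of 1602 values of the 9 genes under an alternative, 1463 kept their side of the threshold and direction, 85 lost a call, 42 gained one and 12 values called in at least 1 of the fits changed sign. All 12 came with RTEL1 CA +GFP as the control: for Rtel1f/f +Cre, Irf1 0.54, Irf5 1.08, Irf7 0.71, Irf9 0.21 and Ifnar2 0.01, and for TMPyP4, Irf1 0.62, Irf5 1.13, Irf7 1.23, Irf9 0.58, Stat2 0.41, Ifnar1 0.20 and Ifnar2 0.33. The number of the 9 genes that passed went from 6 to 2 after Rtel1 deletion and from 4 to 6 under TMPyP4. The cause of this and of the changes that follow was not tested.

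Of the 4 genes that differed between deletion and TMPyP4, 2 passed with size factors, 0 in a fit of only those groups, 1 without the libraries numbered 1, and 1 to 3 with a library left out. Between Rtel1f/f and RTEL1 CA cells 4 became 7 with limma on TPM. Between Trf1f/f and RTEL1 CA cells 2 became 1 with size factors, with no filter or with limma on TPM, 0 with only those groups or without the libraries numbered 1, 4 at a threshold of 0.05, and 0 to 2 with a library left out.

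With the replicate number as a block, no call of the 9 genes changed in the paired comparisons, where 4 and 0 passed. In the differences between Cre effects it gave 5 genes for Rtel1f/f against RTEL1 CA, 9 for Rtel1f/f against Trf1f/f and 3 for Trf1f/f against RTEL1 CA, 1 more call in each, and 8 in RTEL1 CA before Cre, also 1 more. It gave 8 genes after Rtel1 deletion, 6 under TMPyP4 and 6 after Terf1 deletion, where same-numbered libraries did not all deviate together (lowest r -0.0172, 0.0242 and -0.0998).

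Over all genes, calls went from 5902 to 1064 (Rtel1 deletion) and 4114 to 2333 (TMPyP4) with RTEL1 CA +GFP as the control, the latter to 2466 or 2710 without Rtel1f/f +GFP replicate 2 or 3. Deletion against TMPyP4 went from 2088 to 933 with only those groups, 3452 at 0.05 and 1302 without number 1. Cre with RTEL1 CA went from 150 to 337 with DESeq2, 0 with only those groups, 416 at 0.05, 95 with limma, 39 without number 1 and 52 to 149 with a library left out. Terf1 deletion went from 469 to 757 with the replicate block, 872 at 0.05, 258 without number 1 and 282 to 377 with a library left out. Rtel1f/f against RTEL1 CA went from 3450 to 2195 with only those groups and 5229 at 0.05. Trf1f/f against RTEL1 CA went from 85 to 189 with DESeq2, 11 with only those groups, 157 with the block, 195 at 0.05, 8 without number 1 and 27 to 89 with a library left out. The order of levels was not recomputed as CPM per kb. Depth limits Irf7 in RTEL1 CA cells, at 18 to 66 counts, and the interferon genes outside the Trf1f/f line.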
